A study of Arabidopsis thaliana with 6 samples.

Results

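Cytochrome P450 genes were followed through 4 lists of chromatin immunoprecipitation (ChIP) peaks for the DNA-associated protein ENAP1 from whole Arabidopsis thaliana seedlings. They were all protein-coding genes whose symbol is CYP followed by a family number, a subfamily letter and a gene number, such as CYP71B2. This gave 219 of 27444 protein-coding genes, in 40 families and 60 subfamilies. Cyclophilins, whose symbols also begin with CYP, have another name pattern and were left out. A gene was called a target of a list when the summit of a peak, its highest point, lay inside the gene or within 1000 bp of it. The genes themselves were chosen by name, and those singled out were selected on the summit positions and folds of the same peaks, so the counts of targets are descriptions and carry no test.

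All samples were whole COL-0 seedlings, dark-grown for 3 days at 24 °C and then kept for 4 h either in hydrocarbon-free air or in the same air with 10 ppm ethylene. ENAP1 ChIP used an antibody against green fluorescent protein; the labels name COL-0 and describe no tagged line or promoter. In the ENAP1-EIN2 reChIP, chromatin recovered with that antibody went through a second precipitation, for EIN2. Each of the 6 groups, ENAP1 ChIP, reChIP and input in air and in ethylene, was 1 library, so no difference between groups has a replicate check and no p-value is given for one. For the ethylene samples, titles and descriptions name ethylene and were followed, although their treatment label names air.

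The 2 ENAP1 ChIP libraries held 8400099 (air) and 8811720 (ethylene) tags after filtering, against 644263 and 304818 in the air and ethylene reChIP. The lists held 8858 to 9881 peaks. The air ENAP1 and air reChIP lists shared 1 control library, and the ethylene reChIP list was called against the air reChIP library. A peak of the ethylene reChIP list is therefore a place where that library exceeded the air reChIP, and the 2 reChIP lists do not measure occupancy on 1 scale. The fold of a peak is the authors' ratio of its tags to the local control and ranks peaks only within its own list. The q is the peak caller's adjusted p-value of a peak and is given as −log10 q, where higher values are stronger.

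Cytochrome P450 enzymes are haem proteins that insert oxygen into small molecules, most of them in the membrane of the endoplasmic reticulum and with electrons from NADPH-cytochrome P450 reductase. In plants they make and break down hormones (brassinosteroids, gibberellins, abscisic acid, jasmonates), and they build lignin monomers, cutin, pollen wall lipids, sterols, pigments and defence compounds such as glucosinolates. Many lie in tandem clusters of similar copies. EIN2 is the membrane protein whose C-terminal part moves to the nucleus when ethylene is sensed, and ENAP1 is a nuclear protein known to associate with that part of EIN2.

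The share of P450 genes at ENAP1 peaks was below that of genes in general. In air, 61 of the 219 genes (27.9%) were targets of ENAP1 ChIP, where 38.6% of all protein-coding genes were. In ethylene, 57 (26.0%) were targets, against 36.4%. In the air reChIP list 62 P450 genes (28.3%) were targets, against 30.5%, a share near the background. The ethylene reChIP list was the exception, with 84 P450 genes (38.4%) against 34.0% of all genes.

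These orders were the same with q of 0.05 or lower, with a window of 500 bp, with summits inside the gene only, and with each peak given only to its nearest gene. A stricter limit, a −log10 q of at least 5, left the order of both ENAP1 lists as it was, and left 0 and 2 members in the air and ethylene reChIP lists, too few to give one. With q of 0.05 or lower, P450 targets numbered 59 (26.9%) in the air ENAP1 list, against 37.5% of all genes, and 48 (21.9%) in the ethylene ENAP1 list, against 34.4%. At that limit 14 (6.39%) were left in the air reChIP list, against 7.07%, and 59 (26.9%) in the ethylene reChIP list, against 22.5%. The median length of P450 genes was 2054 bp against 2078 bp for all protein-coding genes.

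**Figure D1:**
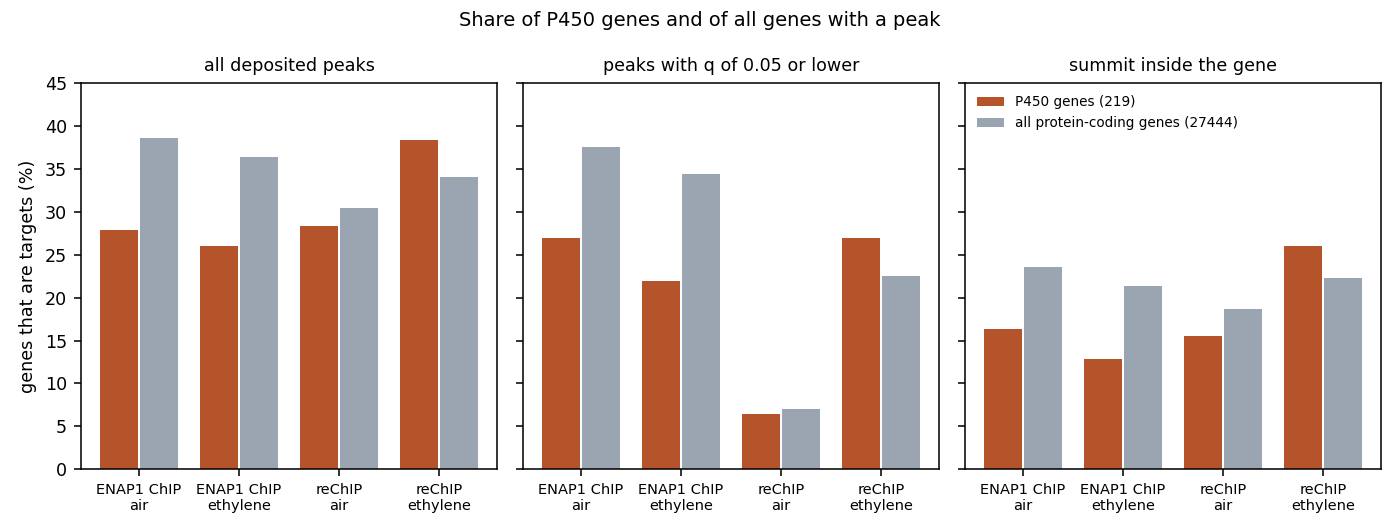
Share of P450 genes (brown, 219 genes) and of all protein-coding genes (grey, 27444 genes) that are targets of each of the 4 peak lists, in percent of genes, with all peaks, with peaks at q of 0.05 or lower, and with summits inside the gene only; each bar is 1 library. The brown bar is below the grey one in both ENAP1 lists in all 3 panels (27.9% against 38.6% in air with all peaks) and above it in the ethylene reChIP list (38.4% against 34.0%).

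Over the 4 lists, 146 P450 genes (66.7%) were a target of at least 1, against 69.6% of all genes, and 73 (33.3%) of none, against 30.4%. Of the 146, 75 (34.2%) were targets of an ENAP1 list in air, in ethylene or in both, against 43.5% of all genes. The other 71 (32.4%) were targets of a reChIP list without being a target of ENAP1 ChIP, against 26.1%. The commonest single pattern was the ethylene reChIP list alone, with 32 genes (14.6%, against 11.4% of all genes). A further 26 genes (11.9%, against 9.54%) were targets of both ENAP1 lists and the ethylene reChIP list but not of the air reChIP, and 25 (11.4%, against 11.0%) were targets of the air reChIP list alone. Both ENAP1 lists and no reChIP list held 7 (3.20%, against 9.98%). CYP71B23 and CYP714A2 were targets of all 4 lists (0.913% of members, against 5.06% of all genes).

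A further 15 P450 genes carry a functional name as their symbol and the CYP name as a synonym, for example CPD (CYP90A1) and TT7 (CYP75B1). They were not members by the naming rule, and many of them are long-studied hormone and lignin genes. Of these 15, 8 (53.3%) were targets of the air ENAP1 list, against 38.6% of all genes, and 9 (60.0%) of the ethylene ENAP1 list, against 36.4%. These shares were above those of all genes, where the shares of the 219 members were below. In the air reChIP list 5 (33.3%) were targets, against 30.5%, and in the ethylene reChIP list 6 (40.0%), against 34.0%. With these 15 genes included, the counts were 69, 66, 67 and 90 of 234 in the air ENAP1, ethylene ENAP1, air reChIP and ethylene reChIP lists. They are described below beside the members of their pathways, for which 12 lists of P450 genes were used; AOS (CYP74A), whose P450 name has no final number, was added to them.

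The share of ENAP1 targets among members on a pathway list was near that of all genes, and among the other members it was below. The pathway lists were chosen with earlier results of these data known, so this split is a description and carries no test. Of the 67 members on a pathway list, 25 (37.3%) were targets in air, against 38.6% of all genes, and 25 (37.3%) in ethylene, against 36.4%. At least 1 ENAP1 list held 30 (44.8%), against 43.5%. Of the other 152 members, 36 (23.7%) were targets in air, 32 (21.1%) in ethylene and 45 (29.6%) of at least 1 ENAP1 list. In the air reChIP list 11 pathway members (16.4%) and 51 others (33.6%) were targets, against 30.5% of all genes, and in the ethylene reChIP list 23 (34.3%) and 61 (40.1%), against 34.0%. The pathway lists below hold 2 to 16 genes each, so that 1 gene moves a share by many points; their counts of targets of an ENAP1 list in either treatment read against the 43.5% of all genes.

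Brassinosteroid genes carried some of the strongest peaks among the hormone genes. CPD, a hydroxylase of brassinosteroid synthesis, had an air ENAP1 peak at 5:1705126-1706189 with a fold of 6.01 and a −log10 q of 37.27. In ethylene its highest peak, at 5:1705548-1706151, had a fold of 4.36 and a −log10 q of 16.75. Both lay inside the gene, as did reChIP peaks with folds of 3.12 in air and 3.60 in ethylene that rested on pileups, the number of stacked tags at the summit, of 4 and 6.

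ROT3 (CYP90C1), another hydroxylase of the pathway, had an ENAP1 peak inside the gene at 4:17191841-17192456 in air, with a fold of 3.73 and a −log10 q of 27.51. The ethylene ENAP1 peak at the same place had a fold of 5.41 and a −log10 q of 26.51. An ethylene reChIP peak at 4:17192033-17192271 lay within it, with a fold of 5.79, a pileup of 13 and a −log10 q of 5.23. BAS1 (CYP734A1), which inactivates brassinosteroids, had ENAP1 folds of 4.22 in air and 5.17 in ethylene, with summits 67 and 55 bp outside the gene, and an ethylene reChIP peak of 4.62 inside it.

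The other brassinosteroid genes had weaker peaks or none. DWF4 (CYP90B1), which catalyses the rate-limiting hydroxylation, had a fold of 3.09 in air and 1.77 in ethylene, the latter with a −log10 q of 0.66. CYP90D1 had a single ENAP1 peak, in ethylene, with a fold of 1.72 and a −log10 q of 0.40. BR6OX2 had only an air reChIP peak, and BR6OX1, CYP724A1 and CYP72C1 had none in any list. In all, 5 of the 9 brassinosteroid genes (55.6%, against 43.5% of all genes) were targets of an ENAP1 list.

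Of the 5 gibberellin genes, 4 (80.0%, against 43.5% of all genes) were targets of an ENAP1 list. With q of 0.05 or lower, 3 were targets in air and 3 in ethylene, against 37.5% and 34.4% of all genes. CYP714A2, which acts on gibberellins and their precursors, had an ENAP1 peak inside the gene at 5:8566480-8566777 in air, with a fold of 4.52 and a −log10 q of 20.01. The ethylene ENAP1 peak there had a fold of 4.03 and the ethylene reChIP peak one of 3.39. Its neighbour CYP714A1 was within reach of the same peaks, 848 to 878 bp away, and had ENAP1 peaks of its own inside the gene with folds of 2.79 in air and 2.39 in ethylene. GA3, the ent-kaurene oxidase of early gibberellin synthesis, had ENAP1 folds of 1.60 and 1.87 with summits inside the neighbouring gene RLP52. KAO2, an ent-kaurenoic acid oxidase, had an ethylene ENAP1 peak of 1.86 and an air reChIP peak of 4.35. That ENAP1 peak had a −log10 q of 0.85, and its summit lay 531 bp outside KAO2, inside AT2G32450. CYP88A3, which encodes the same activity, had an air reChIP peak only.

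Among the 4 abscisic acid hydroxylases, which start the breakdown of that hormone, the peaks were split between family members. CYP707A3 had the second highest fold of the members in both ENAP1 lists. Its peak at 5:18370448-18371317 in air had a pileup of 83.5, a fold of 7.04 and a −log10 q of 40.54, and its peak at 5:18370497-18371248 in ethylene a pileup of 62.2, a fold of 8.06 and a −log10 q of 34.18. CYP707A1 had folds of up to 3.18 in air and 3.60 in ethylene, all inside the gene. CYP707A4 had only an air reChIP peak of 3.75, and CYP707A2 had no peak. None of the 4 was a target of the ethylene reChIP list. CYP707A1, CYP707A3 and CYP707A4 were targets of the air reChIP list, with pileups of 4 to 5.

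The cytokinin hydroxylases CYP735A1 and CYP735A2 had no ENAP1 peak, and CYP735A2 had an air reChIP peak of 3.75. Of the 6 jasmonate and oxylipin genes, 4 (66.7%, against 43.5% of all genes) were targets of an ENAP1 list, and 4 of the ethylene reChIP list, of which 34.0% of all genes were targets. With q of 0.05 or lower, 2 were targets in air ENAP1 and 2 in ethylene ENAP1, against 37.5% and 34.4% of all genes. At that limit 3 were targets of the ethylene reChIP list, against 22.5%. AOS, the allene oxide synthase at the entry to jasmonate synthesis, had folds of 2.43 in air and 2.59 in ethylene, with −log10 q of 13.62 and 10.33. It also had an ethylene reChIP peak inside the gene with a fold of 7.08 and a −log10 q of 6.32. CYP94C1, an oxidase that inactivates the jasmonate hormone, had ENAP1 folds of 2.23 and 2.39 and an ethylene reChIP fold of 3.39. CYP94B1 and CYP94B2 each had 1 weak ENAP1 peak, of 1.70 in air and 1.59 in ethylene, with −log10 q of 1.18 and 0.72. Their ethylene reChIP summits lay 756 and 969 bp outside the genes and were nearest to other genes. CYP94B3 and HPL1, a hydroperoxide lyase, had no peak.

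The genes of cutin, suberin, wax and sporopollenin, the lipid polymers and coatings of surfaces and pollen, numbered 11, of which the same 7 (63.6%) were targets in air and in ethylene, against 31.5% of all genes in both lists. All 7 were so at q of 0.05 or lower in both, against 30.0% of all genes. In the ethylene reChIP list 7 were targets, against 34.0% of all genes, and in the air reChIP list 2, against 30.5%. CYP77A6, a cutin hydroxylase, had an air peak at 3:3303004-3303728 with a pileup of 150, a fold of 4.76 and a −log10 q of 50.13. In ethylene its fold was 4.75 and its −log10 q 32.38. CYP86A2, another cutin hydroxylase, had a peak at 4:162127-162875 with a fold of 4.63 and a −log10 q of 46.78 in air, and a fold of 3.84 in ethylene.

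CYP77A4, a fatty acid epoxygenase, had folds of 3.76 in air and 4.07 in ethylene, and 2 ethylene reChIP peaks inside the gene, of 4.11 and 3.60. CYP86A4 had folds of 2.46 and 2.41, and CYP86A8 of 2.71 and 2.52. These 5 genes of the CYP77A and CYP86A subfamilies all had the summit inside the gene. The 4 genes CYP77A4, CYP86A2, CYP86A4 and CYP86A8 also had an ethylene reChIP peak inside, with folds of 3.60 to 4.16, while CYP77A6 had an air reChIP peak of 3.06 instead. The ethylene reChIP peaks of CYP77A4 and CYP86A2 overlapped an ethylene ENAP1 peak, and those of CYP86A4 and CYP86A8 overlapped none.

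CYP704B1 and CYP703A2 hydroxylate fatty acids for sporopollenin, the polymer of the pollen wall. CYP704B1 had the highest ENAP1 fold of all P450 genes in both treatments. In air its peak at 1:26126234-26126673 had a pileup of 104, a fold of 9.95 and a −log10 q of 64.44. In ethylene the peak at 1:26126206-26126605 had a pileup of 81.9, a fold of 11.7 and a −log10 q of 56.66, which ranked 29 of 8858 peaks by fold. The ethylene reChIP peak at 1:26126282-26126561, with a fold of 6.79 and a pileup of 9, had its summit 8 bp from the ethylene ENAP1 summit. All 3 summits lay 351 to 386 bp outside CYP704B1 and inside its neighbour AT1G69510. With peaks given only to the gene nearest to the summit, they do not count for CYP704B1. CYP703A2 had folds of 2.64, 3.12 and 3.11 in the same 3 lists, with summits inside its neighbour CNX3.

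The other 4 genes of this list were no ENAP1 target. CYP86A7 and CYP86B1 had no peak in any list, CYP86A1, a suberin hydroxylase, had an ethylene reChIP peak of 2.19, and CYP96A15, an alkane hydroxylase of wax synthesis, an air reChIP peak of 3.68.

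In phenylpropanoid and flavonoid synthesis 5 of 7 genes (71.4%) were targets of both ENAP1 lists, against 31.5% of all genes. C4H, the cinnamate hydroxylase at the entry of the pathway, had folds of 2.29 and 2.33. TT7, the flavonoid hydroxylase, had 3.29 in air and 2.40 in ethylene, with −log10 q of 27.95 and 9.58. FAH1, the ferulate hydroxylase of syringyl lignin, had 1.96 and 2.16, and its relative CYP84A4 1.95 and 1.80. All of these lay inside the genes.

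CYP98A3, the coumarate hydroxylase of lignin synthesis, held the highest fold of any P450 gene in the ethylene reChIP list. That peak at 2:17057059-17057305 had a fold of 8.15, a pileup of 11 and a −log10 q of 8.21, and ranked 16 of 9881. It overlapped an ethylene ENAP1 peak with a fold of 2.47, and an air ENAP1 peak with a fold of 2.44 lay at the same place. These 3 summits were 861 to 920 bp outside CYP98A3 and inside AT2G40860. Inside CYP98A3 itself there was an ethylene ENAP1 peak of 2.35 and an ethylene reChIP peak of 4.38, whose summits were 21 bp apart, and no air ENAP1 peak. CYP98A8 and CYP98A9 had no peak.

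Of the 16 genes of glucosinolates, camalexin and indole-3-acetaldoxime, 6 (37.5%, against 43.5% of all genes) were targets of an ENAP1 list. The ethylene reChIP list held 5 of them, against 34.0% of all genes, and the air reChIP list 0, against 30.5%. CYP79B2 and CYP79B3, which turn tryptophan into indole-3-acetaldoxime, both had peaks inside the gene in both ENAP1 lists and in the ethylene reChIP list. CYP79B3 had folds of 3.48 in air, 3.00 in ethylene and 3.65 in the ethylene reChIP, and CYP79B2 of 2.26, 1.63 and 3.39. The control signal under the CYP79B2 peaks, computed from pileup and fold, was 3.79, 5.49 and 6.85 times the median of its list, and its part in those values was not tested. CYP83B1, which takes indole-3-acetaldoxime on to indole glucosinolates, had a peak in air only, with a fold of 2.87 and a −log10 q of 11.61, and no ethylene peak overlapped it.

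The CYP81F enzymes modify indole glucosinolates. CYP91A2, the symbol under which CYP81F1 is listed, had folds of 2.92 in air and 3.50 in ethylene. CYP81F3 had an ethylene ENAP1 peak of 2.63, and CYP81F2 and CYP81F4 had ethylene reChIP peaks of 2.92 and 4.81. The enzymes of aliphatic glucosinolates, CYP79F1, CYP79F2 and CYP83A1, had no peak. Of the camalexin genes CYP71A12, CYP71A13 and PAD3, only CYP71A12 had peaks, 2 in the ethylene reChIP list with folds of 2.92 and 2.83. CYP82C2 had an ethylene ENAP1 peak of 1.86, and CYP79C1 and CYP79C2 had none.

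In sterol synthesis 2 of 5 genes (40.0%, against 43.5% of all genes) were ENAP1 targets. CYP51G1, the sterol demethylase, had an air peak of 2.76 inside the gene, which no ethylene peak overlapped. Its ethylene peak of 1.95 had a −log10 q of 1.19 and a summit 889 bp outside the gene. It overlapped another air peak, of 2.36. CYP710A1 had an air peak of 2.57, and its relative CYP710A2, a sterol desaturase, was a target of the ethylene reChIP list alone, where its fold of 5.80 was the third highest among the 219 members. CYP710A3 and CYP710A4 had no peak. None of the 3 carotenoid hydroxylases was an ENAP1 target. CYP97B3 had reChIP peaks of 3.87 in air and 5.11 in ethylene, LUT1 had an ethylene reChIP peak of 2.72, and CYP97A3 had none.

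In triterpene and terpene metabolism 4 of 8 genes were ENAP1 targets, against 43.5% of all genes. CYP708A2, the thalianol hydroxylase, had an air ENAP1 peak of 2.18 and an air reChIP peak of 4.37. CYP71A16, the marneral oxidase, had an air peak of 2.28, and CYP716A1 an ethylene peak of 2.53. CYP76C1, a linalool hydroxylase, was counted through the ENAP1 peaks inside its neighbour CYP76C2, described below. CYP705A1, CYP705A5, CYP82G1 and CYP706A3 had none. Of the 6 CYP78A genes, regulators of organ and seed size, only CYP78A6 was an ENAP1 target, with folds of 2.48 and 2.04. CYP78A7 had an ethylene reChIP peak of 4.14 and CYP78A9 an air reChIP peak of 2.49.

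**Figure D2:**
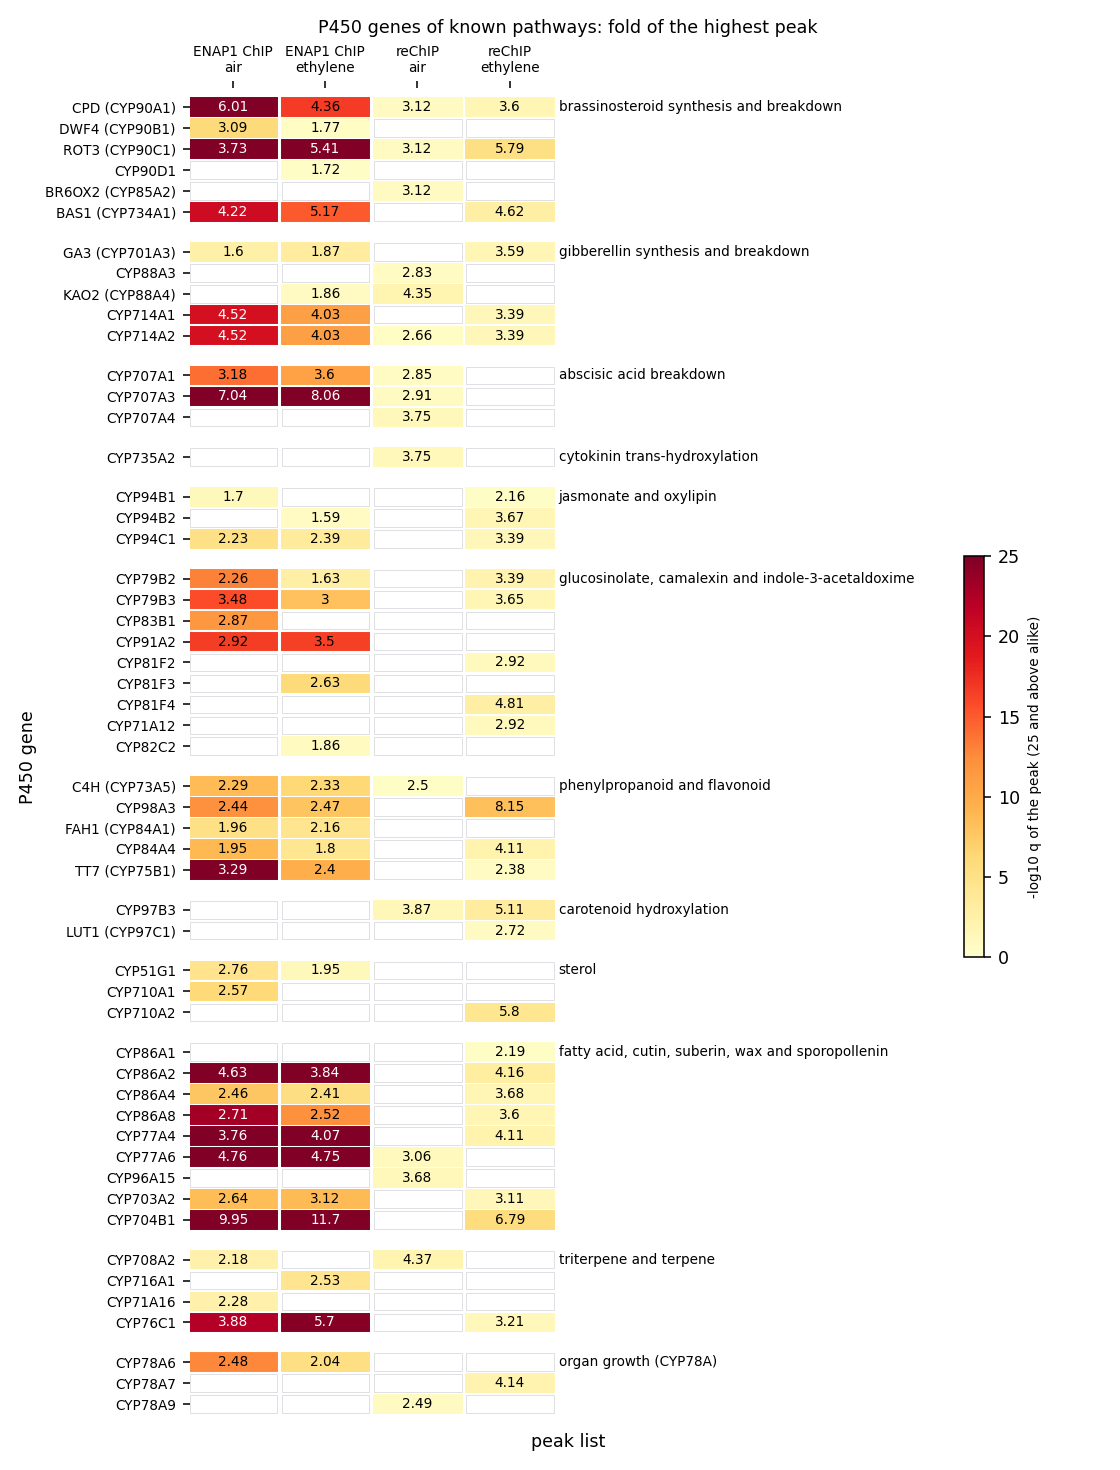
Fold of the highest peak (number in each cell) and its −log10 q (colour scale, 25 and above alike) at P450 genes of 12 pathway lists, one row per gene and one column per peak list; white cells have no peak, genes with no peak in any list and AOS are not drawn, and each column is 1 library. The genes darkest in both ENAP1 columns are ROT3, CYP707A3, CYP86A2, CYP77A4, CYP77A6 and CYP704B1, and no reChIP cell exceeds the −log10 q of 8.21 at CYP98A3.

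P450 enzymes need an electron donor, and 8 genes of reductases and cytochromes b5 were read in the same way. Neither P450 reductase gene was an ENAP1 target, with ATR1 having an ethylene reChIP peak of 4.07 and ATR2 an air reChIP peak of 4.21. Of the cytochrome b5 genes, CB5-D had ENAP1 folds of 3.60 in air and 3.60 in ethylene, CB5-E had 2.96 in ethylene and CB5-C had 2.22 in air. CBR, the NADH-cytochrome b5 reductase, had no peak.

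Several strong peaks lay at genes outside the pathway lists. CYP71B34 had the third highest air fold of the members, 5.98, at 3:9640630-9641143, with a −log10 q of 27.32. In ethylene its peak had a fold of 4.22 and a −log10 q of 8.35, and its ethylene reChIP peak a fold of 3.53. All of these lay inside CYP71B34, and CYP71B35 beside it was counted from the same peaks at distances of 134 to 303 bp. CYP71B35 also had an air ENAP1 peak of its own inside the gene, with a fold of 2.84 and a −log10 q of 4.50. CYP76C2 had a peak inside the gene at 2:18779294-18779575 with a fold of 3.88 in air, 5.70 at the same place in ethylene and 2.48 in the ethylene reChIP. CYP76C1 lay within reach of these, 718 to 761 bp away.

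CYP706A2 had folds of 4.80 in air (4:11936868-11937279), 5.95 in ethylene and 5.14 in the ethylene reChIP, with −log10 q of 33.42, 29.43 and 3.54. The ethylene ENAP1 and reChIP summits were 5 bp apart. As with CYP704B1, all 3 summits lay outside the P450 gene, by 225 to 240 bp, and inside a neighbour, AT4G22720. CYP89A5 had an air fold of 4.76 and a −log10 q of 21.29 inside the gene, where the ethylene peak had 2.36 and 3.69. An ethylene reChIP peak of 4.38 overlapped the latter, with summits 17 bp apart.

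Most of the remaining members with a −log10 q of at least 5 in an ENAP1 list had their strongest peak in or nearest to a neighbouring gene. CYP86C3 had folds of 3.76 in air (−log10 q 28.08) and 3.11 in ethylene, with summits 204 and 227 bp outside and nearest to AT1G13130, and a second air peak of 3.64 for which CYP86C3 was the nearest gene. CYP705A33 had folds of 3.66 in air (−log10 q 24.78) and 4.16 in ethylene from summits inside NFU4, and an ethylene peak of 2.86 inside the gene itself. CYP86C4 had 3.27 and 4.04 from summits inside AT1G13160, and CYP71B16 had 3.64 and 3.87 from summits inside AT3G26147.

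CYP721A1 had folds of 2.70 in air and 2.27 in ethylene, with AT1G75140 nearest, and CYP81G1 had 2.31 and 2.96, with HOS15 nearest. CYP81D3 was counted from peaks of 2.54 and 3.10 inside its neighbour CYP81D4. CYP89A9 had peaks inside the gene, of 2.27 in air and 3.12 in ethylene, and CYP71B6 was itself the nearest gene to its air peak of 2.94.

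**Figure D3:**
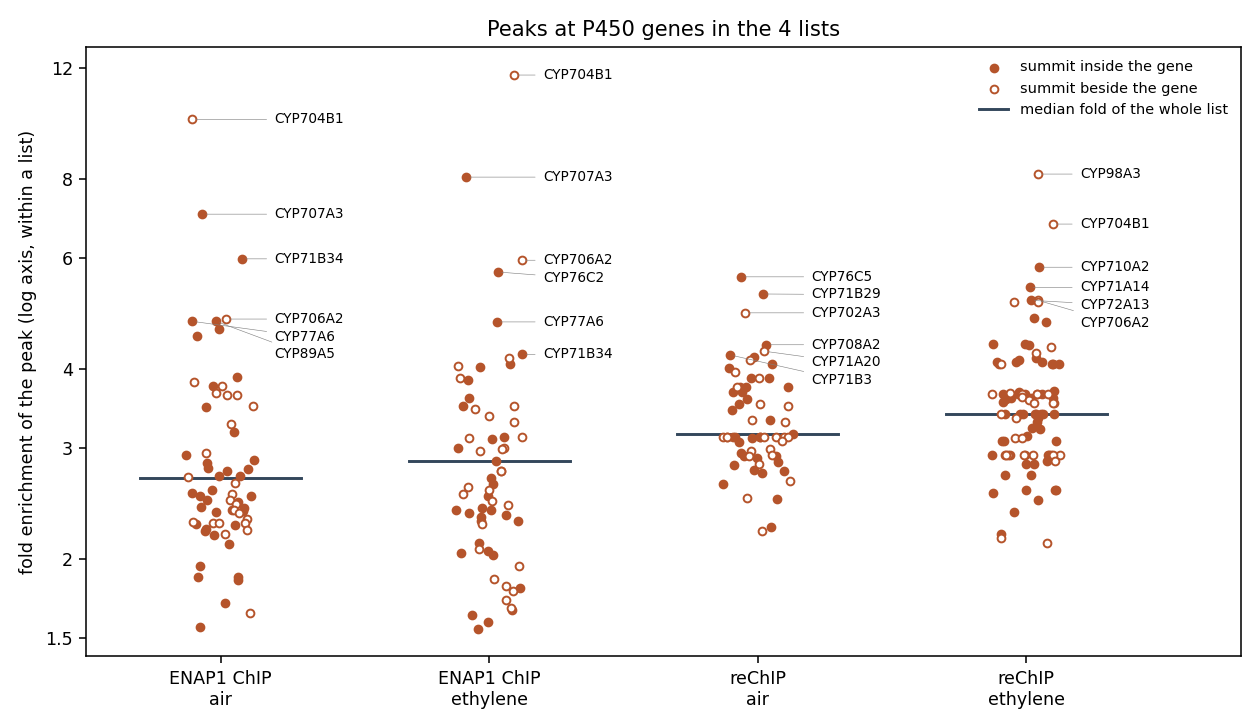
Fold enrichment (log axis) of every peak at a P450 gene in the 4 lists, 1 library each; filled points have the summit inside the gene, open points beside it, the horizontal line is the median fold of the whole list, and the 6 highest peaks of each list are named. CYP704B1 (9.95 in air, 11.7 in ethylene) and CYP707A3 (7.04 and 8.06) stand above the other peaks in both ENAP1 lists, and most points lie around the line; folds are comparable within a list only.

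The typical P450 peak was close to the middle of its list. The median fold of the 66 air ENAP1 peaks at members was 2.52, against 2.69 for the whole list, with a range of 1.56 to 9.95. For the 62 ethylene ENAP1 peaks it was 2.61 against 2.86, with a range of 1.55 to 11.7. For the 63 air reChIP peaks it was 3.12 against 3.16, and for the 95 ethylene reChIP peaks 3.39 against 3.39. Of the ENAP1 peaks at members, 95.5% in air and 83.9% in ethylene had q of 0.05 or lower (95.5% and 92.0% of the whole lists). Of the reChIP peaks 22.2% in air and 65.3% in ethylene did (19.4% and 57.5%). A pileup of 5 or less lay under 69.8% and 72.6% of these reChIP peaks (72.3% and 79.9% of the whole lists).

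The control signal under P450 peaks was above the median of the list, at a median of 1.39 times in air and 1.44 times in ethylene for ENAP1, and 1.09 and 1.14 times for the reChIP. ENAP1 peaks at least 500 bp wide made up 10 of the 66 air peaks at members (15.2%, against 8.75% of the list) and 6 of 62 in ethylene (9.68% against 7.28%). The 6 ethylene ones lay at CYP77A6, CYP77A4, CYP86A2, CYP79B2, CYP84A4 and CYP707A3, and all 6 of these genes also had a wide air peak. The control level under the wide peaks at members had a median of 2.19 times the list median in air and 2.82 in ethylene, against 1.21 and 1.29 for wide peaks of the lists. At CYP707A3 it was 0.786 and 0.737. The part of the control signal in the wide peaks was not tested.

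Summits at P450 genes lay deeper in the gene than elsewhere in the ENAP1 lists. In air 41 of 73 peak-gene pairs had the summit inside the P450 gene, and 12 of these (29.3%) were within 200 bp of a gene edge, against 55.7% over all genes. In ethylene 9 of 33 inside pairs (27.3%) were, against 60.0%. The median distance from the edge was 298 bp in air and 313 bp in ethylene, against 172 and 155 bp over all genes. Gene strand was not used, so the edge may be the start or the end. In the reChIP lists the inside summits lay at medians of 501 bp in air and 477 bp in ethylene, against 612 and 498 bp.

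**Figure D4:**
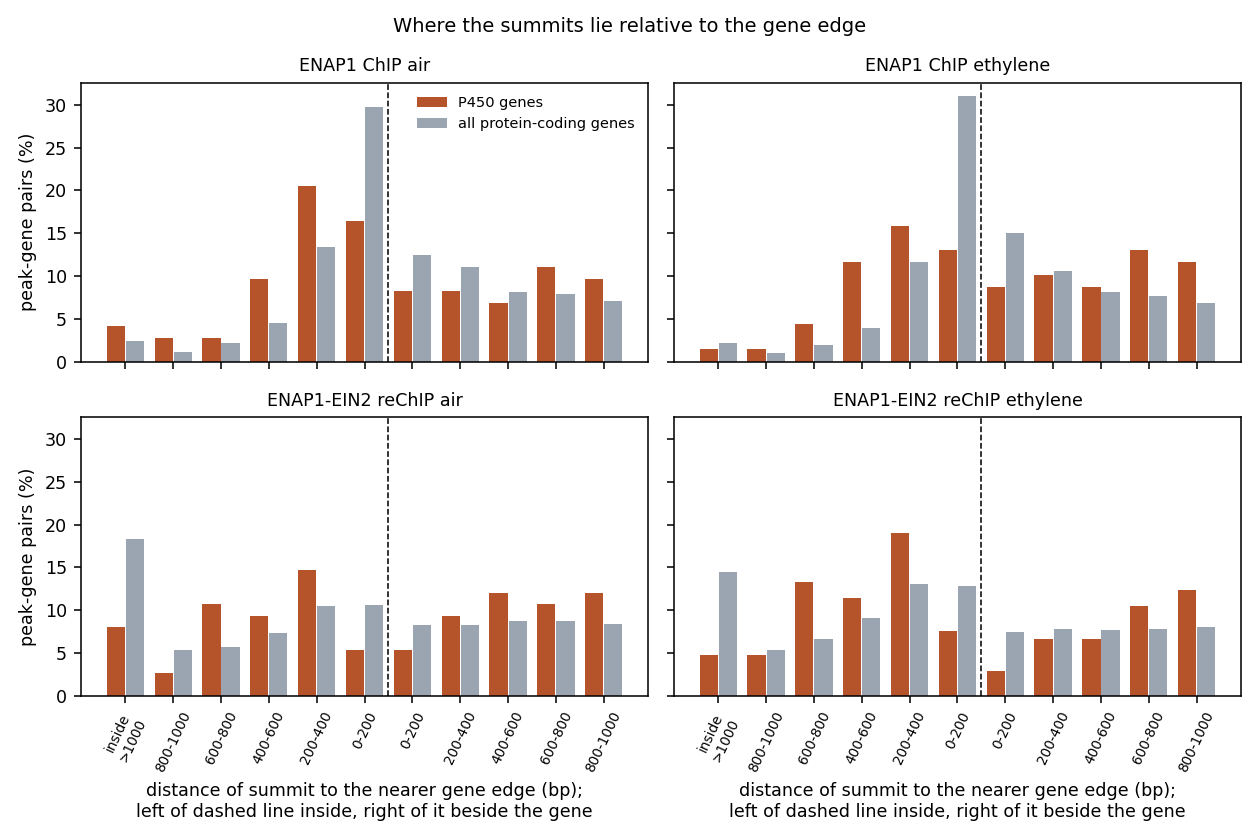
Distance of the summit from the nearer gene edge in bp, as a percent of peak-gene pairs, for P450 genes (brown) and all protein-coding genes (grey) in the 4 lists; bins left of the dashed line are inside the gene, bins right of it beside the gene. In air ENAP1 ChIP the bin just inside the edge holds 16.4% of P450 pairs and 29.8% of all pairs, and the next bin inward 20.5% and 13.4%.

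When the summit lay beside the P450 gene it was often inside another one. This held for 20 of 32 such pairs in air (62.5%, against 54.9% over all genes), 20 of 36 in ethylene (55.6% against 52.7%) and 31 of 41 in the ethylene reChIP (75.6% against 60.0%). With summits inside the gene only, 36 P450 genes (16.4%) were targets in air, against 23.6% of all genes, and 28 (12.8%) in ethylene, against 21.4%. In the reChIP lists these were 34 (15.5%) in air, against 18.7%, and 57 (26.0%) in ethylene, against 22.3%. Just at the limit of the window, CYP705A12, 985 bp from an air summit inside AT5G42570, was counted, and CYP71B9, 1009 bp from an air summit with a fold of 2.76, was not. CYP705A33 at 983 bp was counted in air, and CYP709B2 at 1021 bp was not. In ethylene CYP71B9 at 979 bp and CYP705A12 at 992 bp were counted, and CYP96A5 at 1065 bp and CYP96A9 at 1115 bp were not. In the air reChIP list CYP71A20 at 989 bp and CYP705A9 at 981 bp were counted, and CYP96A10 at 1016 bp and CYP71B34 at 1118 bp were not. In the ethylene reChIP list CYP81K2 at 991 bp and CYP94D1 at 977 bp were counted, and CYP90D1 at 1020 bp and CYP710A3 at 1043 bp were not.

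The overlap of ENAP1 targets between air and ethylene was a smaller share in the superfamily than over all genes. The 43 P450 genes in both lists (19.6% of members, against 31.5% of all genes) were 70.5% of the air targets and 75.4% of the ethylene targets, where all genes gave 81.6% and 86.6%. With q of 0.05 or lower, 39 (17.8%) were in both lists, against 30.0%. By peaks, 42 of 66 air peaks at members (63.6%, exact binomial 95% interval 50.9 to 75.1%) overlapped an ethylene peak by at least 1 bp, against 72.3% of the list. Of the 62 ethylene peaks, 43 (69.4%, interval 56.3 to 80.4%) overlapped an air peak, against 79.5%. Both intervals include the share of the whole list, and they cover counting error only. With −log10 q of at least 5, 38 members (17.4%) were targets in air, against 26.9% of all genes, and 32 (14.6%) in ethylene, against 22.4%.

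Targets of the air ENAP1 list alone numbered 18 (8.22%, against 7.10% of all genes) and of the ethylene ENAP1 list alone 14 (6.39% against 4.87%). The highest air-only folds were 2.87 at CYP83B1, 2.71 at CYP71B37, 2.57 at CYP710A1 and 2.53 at CYP712A1, and no ethylene peak overlapped any of these 4. The highest ethylene-only folds were 3.37 at CYP71B21, 3.30 at CYP71B9, 2.99 at CYP71B13 and 2.86 at CYP705A32. The CYP71B9 peak overlapped the air peak whose summit lay just outside the window. With 1 library per treatment, a peak present in 1 list and absent from the other cannot be told apart from a peak near the calling limit.

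In ethylene, 31 P450 genes (14.2%, against 16.3% of all genes) were targets of both ENAP1 ChIP and the reChIP. They were 54.4% of the ENAP1 targets and 36.9% of the reChIP targets, where all genes gave 44.9% and 48.0%. With q of 0.05 or lower they numbered 22 (10.0%), against 11.4%. By peaks, 21 of 95 ethylene reChIP peaks at members (22.1%, exact binomial 95% interval 14.2 to 31.8%) overlapped an ethylene ENAP1 peak. The share of the list was 17.4%, which lies inside that interval. The 28 genes that were also targets of the air ENAP1 list (12.8%, against 14.6%) included CYP98A3, CYP704B1, CYP706A2, CYP89A5, CYP81D4 and CYP86C1. These had the highest ethylene reChIP folds among them, from 8.15 down to 4.24. The reChIP peaks of 4.37 at CYP81D4 and of 4.24 at CYP86C1 overlapped no ethylene ENAP1 peak. The summit of the first lay inside CYP81D5, 971 bp outside CYP81D4. That of the second lay 663 bp outside CYP86C1 and was nearest to another gene. A weaker reChIP peak at CYP86C1, with a fold of 3.53, overlapped one. With q of 0.05 or lower in each list, 22 members (10.0%) were in all 3, against 10.4%. Of the members only CYP98A3 and CYP704B1 (0.913% of members, against 0.707% of all genes) reached a −log10 q of 5 in that list.

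Other high ethylene reChIP folds had no ethylene ENAP1 peak beside them. CYP710A2 had 5.80, CYP71A14 had 5.39 with an air ENAP1 peak of 1.87 overlapping its place, and CYP72A13 had 5.14 with an air ENAP1 peak of 2.42. The peak of CYP72A13 also counted for its tandem neighbour CYP72A11. In the air reChIP list the highest folds were 5.60 at CYP76C5 and 5.26 at CYP71B29, both inside the gene with pileups of 9, then 4.91 at CYP702A3, 4.37 at CYP708A2, 4.27 at CYP71A20 and 4.21 at CYP71B3. CYP76C5 and CYP71B29 had no ENAP1 peak. No member reached a −log10 q of 5 in that list, where 0.222% of all genes did.

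CYP71B23, 1 of the 2 members in all 4 lists, got there through separate weak peaks. Its highest folds were 2.52, 2.76, 4.07 and 2.12 in the air ENAP1, ethylene ENAP1, air reChIP and ethylene reChIP lists. Only the air reChIP peak of 4.07 lay inside the gene, and the summits of the peaks with folds of 2.52 and 2.12 were nearest to its neighbour CYP71B3. Of the 15 P450 genes known by a synonym, CPD and ROT3 were in all 4 lists (13.3%, against 5.06% of all genes). The air reChIP peak of ROT3 had a fold of 3.12 on a pileup of 4.

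The number of targets in a P450 family is read against the share of all genes, 38.6% in air ENAP1, 36.4% in ethylene ENAP1, 30.5% in the air reChIP and 34.0% in the ethylene reChIP. CYP86, a family of fatty acid hydroxylases, had 6 of 10 genes in each ENAP1 list and 5 in the ethylene reChIP. Of the 6, CYP86C1, CYP86C3 and CYP86C4 had no summit inside the gene, only summits 204 to 951 bp outside it in the ENAP1 lists. CYP81 had 6 of 16 in air, 7 in ethylene and 10 in the ethylene reChIP. In CYP89 all 6 genes were targets of the ethylene reChIP list, and 2 of 6 of each ENAP1 list. The reChIP folds at 4 of them, CYP89A2, CYP89A3, CYP89A6 and CYP89A7, were 2.83 to 3.35 inside the gene, on pileups of 3 to 5.

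At the other end, none of the 12 CYP96 genes, which include the wax alkane hydroxylase CYP96A15, was a target of an ENAP1 list. Of these, 8 had no peak in any list. Ethylene ENAP1 summits lay just outside the window of CYP96A9, at 1115 bp with a fold of 3.40 and a −log10 q of 18.57, and of CYP96A5, at 1065 bp with 3.14 and 4.18. CYP705 had 2 of 24 in air and 3 in ethylene, with 11 genes in no list. The largest family, CYP71, had 14 of 48 in air, 12 in ethylene, 18 in the air reChIP and 19 in the ethylene reChIP. In the 5 families with at least 10 members 36 of 110 genes (32.7%) were targets of an ENAP1 list, and in the 35 smaller families 39 of 109 (35.8%), against 43.5% of all genes.

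**Figure D5:**
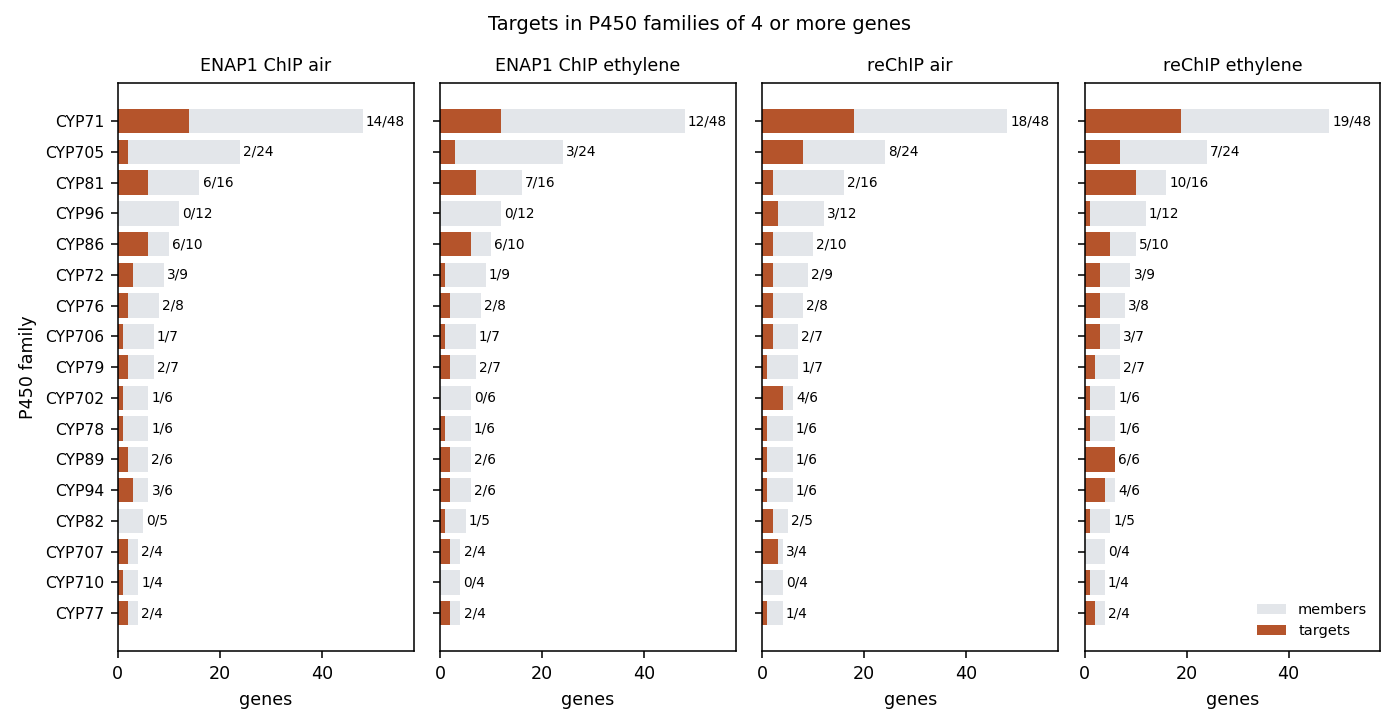
Number of genes (light bars) and of targets (brown bars) in P450 families with 4 or more genes, with one panel per peak list and the fraction written beside each bar; each panel is 1 library. CYP86 has 6 of 10 targets in both ENAP1 panels, CYP96 has 0 of 12, and CYP89 has 6 of 6 in the ethylene reChIP panel.

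Many P450 genes stand in tandem, and 108 members had another P450 gene as a neighbouring protein-coding gene. In the air ENAP1 list 31 of these (28.7%) and 30 of the other 111 (27.0%) were targets, against 38.6% of all genes. In the ethylene ENAP1 list it was 23 (21.3%) and 34 (30.6%), against 36.4%. In the air reChIP list it was 38 (35.2%) and 24 (21.6%), against 30.5%, and in the ethylene reChIP list 41 (38.0%) and 43 (38.7%), against 34.0%. Between 7 and 12 peaks of a list were counted for more than 1 P450 gene. Per the file headers, alignments were named for a mapping quality of 30, which near-identical copies may fail, and the part of this filter in the counts of tandem genes was not tested.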

How the data were processed

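ChIP and reChIP DNA from whole seedlings was sequenced and aligned with BWA to TAIR10, per the submitters' processing notes. The file headers name MACS2 2.1.0.20150603, run per library against 1 control with a p-value limit of 0.01, a genome size of 120000000 bp and 1 tag kept per position. The authors deposited, for each peak, a pileup signal in tags at its summit (scaled to the smaller of library and control), a −log10 p-value, a −log10 q-value and a fold, the ratio to the local control. Total tags were 13284188 and 13273018 in the air and ethylene ENAP1 ChIP and 3959931 and 1844488 in the reChIP, of which 37%, 34%, 84% and 83% were duplicates, per the file headers. The controls held 7160364 tags (both air lists), 4809861 (ethylene ENAP1 ChIP) and 644263 (ethylene reChIP; the air reChIP library).

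From these, targets, nearest genes and overlaps of at least 1 bp were computed with Python 3.11.15, pandas 2.3.3, numpy 2.4.6 and scipy 1.17.1, after tests on simulated data. The control level was (pileup + 1)/fold − 1. Gene names and positions came from a RefSeq table of TAIR10.1, used without strand or exons; none of its coordinates are printed. As a check of the register, 40.5% of air ENAP1 summits lay inside a gene within 200 bp of its edge, against 7.83 to 10.6% with the table shifted by 1000 to 10000 bp. No sequences were used.

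Members and gene lists were chosen with earlier results of these data known. Named genes were the 6 highest folds per list, genes in all 4 lists, genes with −log10 q of at least 5, the highest genes of shared and single-treatment sets, genes at the window's edge, and the pathway lists; other names were chosen after their values were seen. Alternatives were 2 q limits, a window of 500 bp, summits inside the gene, the nearest gene only, members also taken by synonym, and stricter overlaps.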

Additional observations from a re-analysis of the deposited data

How the results depend on the processing

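The 12 counts, shares and medians had 52 alternatives. Of these, 33 left a count within 1.5 times, a share within its interval or a median within its spread. A further 19 moved the value. The order against all genes was computed under the alternatives only for the counts of single lists, as given above. Counts of genes in 2 lists, and shares of overlapping peaks, therefore stand below without a value over all genes or the whole list. With −log10 q of at least 5, P450 targets numbered 38 in air ENAP1 ChIP, 32 in ethylene ENAP1 ChIP, 0 in the air reChIP and 2 in the ethylene reChIP, and 2 genes were in both ethylene lists. At that limit 90.0% of the 30 ethylene ENAP1 peaks at members overlapped an air peak. Of the 2 ethylene reChIP peaks at members, 100% overlapped an ethylene ENAP1 peak. With summits inside the gene the counts were 36, 28 and 34 in air ENAP1, ethylene ENAP1 and air reChIP, 22 in both ENAP1 lists and 17 in both ethylene lists. With the nearest gene only they were 37 in ethylene ENAP1, 27 in both ENAP1 lists and 17 in both ethylene lists. With q of 0.05 or lower the air reChIP count was 14, and the median folds were 4.16 in the air reChIP and 3.65 in the ethylene reChIP. With an overlap of at least 50%, 12.6% of the 95 ethylene reChIP peaks at members overlapped an ethylene ENAP1 peak. A stricter limit or a smaller window removes peaks by construction; the causes were not tested otherwise. No paired analysis was possible because each group had 1 library. With members also taken by synonym, all 6 counts of targets stayed within 1.5 times. Most reChIP peaks rested on a pileup of 5 or less, at members and in the whole lists alike. The part of the low depth of the reChIP libraries in this was not tested.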
